A study of Mus musculus with 36 samples.

Results

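The values described here are the RNA levels of 10 Kruppel-like factor genes (Klf2, Klf3, Klf4, Klf6, Klf7, Klf9, Klf10, Klf13, Klf15 and Klf16) in punches of anterior cingulate cortex (aCC, right side) from female mice. They are 10 of the 17 Klf genes in a table of 52636 genes, and all 10 were among the 25572 genes that passed the filter on low values. The 10 were chosen by name with their levels in the 4 groups in view, on the log2(TPM + 0.5) scale, where TPM is a gene's length-adjusted share of all transcripts in a library. Differences between the groups are therefore given below as a description: the p-values place a gene among all genes tested and are no test of the members. The levels were read with and without the library WT vehicle 1. Single libraries are named here by group and number.

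Each library came from 1 mouse aged 8 to 11 weeks, of the strain C57BL/6NTac. Wild type (WT) mice were compared with Brd1+/- mice, which carry in all tissues 1 allele of Brd1 with a targeted deletion and 1 intact allele, so that the line models a lowered gene dose and not a loss. The Brd1 protein is a scaffold with a bromodomain that brings histone acetyltransferases to chromatin. Mice had received saline (vehicle) or the tricyclic antidepressant imipramine (IMN) at 10 mg/kg by injection under the skin, and all 4 groups had gone through behavioral tests, the forced swim test included, before the brains were taken. There were 8 WT vehicle, 10 WT IMN, 9 Brd1+/- vehicle and 9 Brd1+/- IMN libraries.

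Kruppel-like factors are transcription factors that bind GC-rich and CACCC-containing DNA through zinc fingers at their carboxyl end. Outside the fingers they differ: Klf2, Klf4, Klf6 and Klf7 are known mainly as activators, Klf3 recruits the corepressor CtBP, Klf9, Klf10, Klf13 and Klf16 recruit the corepressor Sin3, and Klf15 is a metabolic regulator. In brain the family is known for roles in axon growth, in the response to glucocorticoid and thyroid hormones, and, for Klf2 and Klf4, in the endothelium of blood vessels.

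Promoter sequence was taken from RefSeq (GRCm38.p6), which held an entry for 8 of the 10 genes. Klf4, Klf15, Klf9 and Klf13 are printed because Klf4 and Klf15 belonged to one set of genes that varied together between mice of the same group, and Klf9 and Klf13 to another. Each line holds the 250 bases before the RefSeq start, 5′ to 3′ on the strand of the gene. These windows overlap no gene of the GENCODE M21 annotation. They lie at chr4:55532476-55532725 (minus strand), chr6:90462326-90462575 (plus), chr19:23140976-23141225 (plus) and chr7:63938916-63939165 (minus). Capitals mark the letters TGACG, the short form of the cAMP response element (CRE), and TGANTCA, an AP-1 site, on either strand.
Klf4: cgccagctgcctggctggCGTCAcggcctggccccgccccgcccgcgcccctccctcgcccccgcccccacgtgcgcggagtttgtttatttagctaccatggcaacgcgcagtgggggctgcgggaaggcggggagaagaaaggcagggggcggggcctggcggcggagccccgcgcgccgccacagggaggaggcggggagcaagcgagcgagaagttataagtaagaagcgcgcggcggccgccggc
Klf15: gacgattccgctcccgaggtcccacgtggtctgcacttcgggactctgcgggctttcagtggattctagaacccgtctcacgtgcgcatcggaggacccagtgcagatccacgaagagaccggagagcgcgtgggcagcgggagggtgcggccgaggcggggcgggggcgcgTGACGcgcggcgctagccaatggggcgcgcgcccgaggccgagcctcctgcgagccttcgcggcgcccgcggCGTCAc
Klf9: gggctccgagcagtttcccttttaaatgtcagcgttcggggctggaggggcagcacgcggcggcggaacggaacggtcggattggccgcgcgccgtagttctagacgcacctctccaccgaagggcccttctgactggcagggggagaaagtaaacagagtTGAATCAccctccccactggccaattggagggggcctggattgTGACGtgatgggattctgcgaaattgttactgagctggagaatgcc
Klf13: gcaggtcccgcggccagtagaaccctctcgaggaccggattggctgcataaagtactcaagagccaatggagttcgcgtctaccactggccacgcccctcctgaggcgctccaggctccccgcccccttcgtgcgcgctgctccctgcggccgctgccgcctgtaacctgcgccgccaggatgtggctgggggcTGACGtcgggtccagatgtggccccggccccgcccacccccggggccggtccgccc

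The short CRE was found in 5 of the 8 promoters (Klf2, Klf4, Klf9, Klf13 and Klf15), beside 17.8% of all 32851 mouse promoters of the same length. Klf15 held it at 2 places, from base 78 and from base 6 before the start. The full CRE, TGACGTCA, was in 0 of the 8 (1.55% of all promoters), the CArG box bound by serum response factor in 0 (1.47%) and the AP-1 site in 1, Klf9 (6.75%). Sites that Sp and Klf proteins themselves bind were common: the GC box GGGCGG was in 7 of 8 (32.7% of all promoters) and the CACCC box, searched as CCACCC, in 4 of 8 (28.1%). The E-box CACGTG, a site of clock proteins, was in 3 of 8 (Klf4, Klf6 and Klf15, with 6.02% of all promoters), and TGTTCT, one arm of the glucocorticoid response element, in 0 of 8 (16.1%). All searches covered both strands. Of the windows not printed, that of Klf7 lay wholly inside the GENCODE Klf7 gene. The Klf3 window lay wholly inside Gm20033 and shared 133 bases with Klf3, and those of Klf2 and Klf6 shared 29 and 7 bases with their genes. The printed windows were rich in G and C, at 74% for Klf4, 72% for Klf15, 71.6% for Klf13 and 59.6% for Klf9. A match is a description of letters in these windows and not a bound site.

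The tissue held the genes the label calls for. All 5 neuronal markers (such as Snap25 and Slc17a7) and all 5 cortical layer markers (such as Cux2 and Tbr1) had a median of at least 1 TPM. Brd1, the targeted gene, had a mean of 26.4 TPM (SD 3.03) in WT vehicle and of 23.3 TPM (SD 3.43) in WT IMN libraries, beside 16.8 TPM (SD 2.72) and 16.8 TPM (SD 2.1) in those from Brd1+/- mice, so that its level went with the genotype labels. Some libraries stood apart. WT vehicle 1 had a summed level of 10 oligodendrocyte markers of 2841 TPM, the highest of its group, where the group median was 421 TPM, and the lowest summed level of 20 immediate-early genes, 1043 TPM beside a median of 1787 TPM. Brd1+/- IMN 6 had the lowest summed level of the immediate-early genes of all 36 libraries, 711 TPM, and an oligodendrocyte sum of 3445 TPM. Brd1+/- vehicle 6 carried 1491 TPM of 12 striatal genes, while the median library had 196 TPM, and 3938 TPM of 8 choroid plexus genes, where the median was 2.05 TPM. Oligodendrocyte sums spanned 192 to 3570 TPM over the 36 libraries, and in bulk tissue fewer cells of a type and less RNA per cell cannot be told apart.

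**Figure D1:**
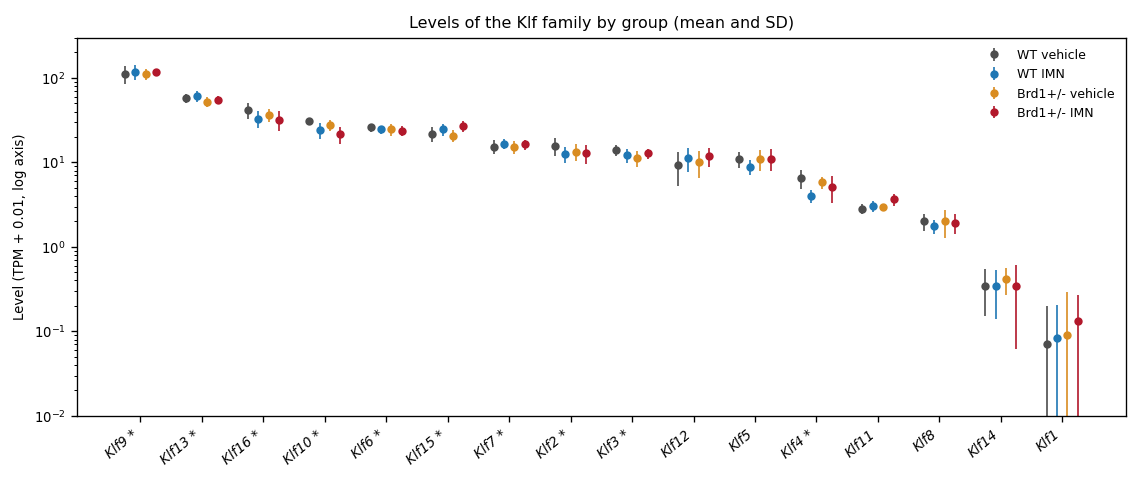
Levels of 16 Klf genes in the 4 groups, as the mean (point) and SD (bar) in TPM + 0.01 on a log axis. Asterisks mark the 10 genes described here, and Klf17 is left out because it was listed at 0 in every library. Klf9 stands highest at about 115 TPM and the means of the 4 groups lie close together for most genes.

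TPM is a level per length, so genes can be set side by side. Klf9, an early target of thyroid hormone and glucocorticoids, had the highest level, 114.8 TPM ± 19.6 (SD, n = 36). Klf13, its close relative, followed at 56.4 TPM ± 7.89 and was below Klf9 in 36 of 36 libraries. Klf16, first described as a regulator of dopamine receptor genes, had 35.4 TPM ± 8.50. Those 3 genes, all of the group that recruits Sin3, thus led the family in this cortex. Klf10, known as a gene induced early by TGF-beta, had 25.8 TPM ± 5.42. Klf6, an injury and axon growth factor, had 24.6 TPM ± 3.16, and Klf15, a glucocorticoid target in metabolism, had 23.7 TPM ± 4.54. These neighbours were not separated beyond their spread: Klf10 exceeded Klf6 in 21 of 36 libraries and Klf6 exceeded Klf15 in 23 of 36. Klf7, a neuronal factor of axon growth, had 16 TPM ± 2.48, Klf2 13.6 TPM ± 3.29 and Klf3 12.5 TPM ± 2.36. Klf7 exceeded Klf2 in 26 of 36 libraries and Klf2 exceeded Klf3 in 21 of 36, so this order was not firm either. Klf4, a pluripotency factor that also acts in endothelium and in neurons, was the lowest of the 10 at 5.28 TPM ± 1.60 and was below Klf3 in 36 of 36.

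Of the 7 other Klf genes in the table, Klf12 (10.7 TPM ± 3.56) and Klf5 (10.4 TPM ± 2.72) had means above that of Klf4. Klf11 stood at 3.11 TPM ± 0.531 and Klf8 at 1.91 TPM ± 0.516. Klf14 averaged 0.350 TPM. Klf1, the erythroid member, averaged 0.0841 TPM and was above 0 in 12 of 36 libraries, and Klf17 was listed at 0 in all 36. Counting could touch some of them: strand use is not stated, and Klf3 shares its span with the antisense transcript Gm20033, which averaged 4.05 TPM, and with C230096K16Rik at 1.04 TPM. Klf13 overlaps Gm27252 at 1.15 TPM, while the genes that overlap Klf7 and Klf9 averaged below 0.2 TPM. Klf2, Klf4, Klf6, Klf10, Klf15 and Klf16 overlap no other gene.

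**Figure D2:**
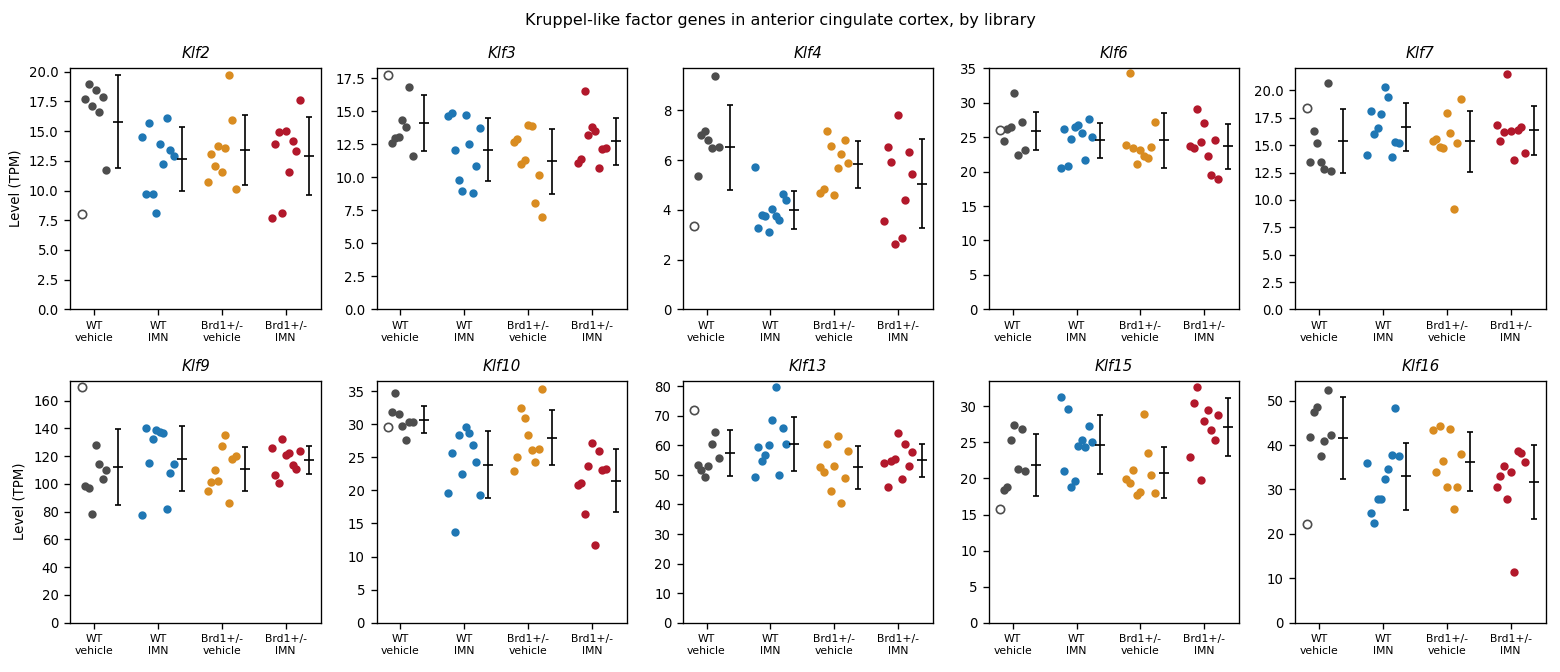
TPM of the 10 genes in every library, in 4 groups, with the group mean and SD as a bar to the right of the points. The open circle is WT vehicle 1. It is the lowest point of its group for Klf2, Klf4, Klf15 and Klf16 and the highest for Klf3, Klf9 and Klf13.

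Among the activators, Klf4 showed the widest difference with IMN in WT mice. It is located on chr4:55527143-55532466 (minus strand). Klf4 ranged from 3.34 to 9.38 TPM with a median of 6.67 TPM in WT vehicle libraries, and from 3.12 to 5.73 TPM with a median of 3.79 TPM in WT IMN libraries. All 10 WT IMN libraries lay below the WT vehicle mean, and 2 of them lay below the lowest vehicle library, which was WT vehicle 1. The Brd1+/- range was 4.62 to 7.19 TPM (median 5.90 TPM) with vehicle and 2.62 to 7.80 TPM (median 5.43 TPM) with IMN. There the IMN libraries were more spread, with 4 of 9 below the lowest vehicle library and 1 above the highest. On the log2 scale the difference was -0.61 (SE 0.146) in WT mice, which is 65.5% of the vehicle level, and -0.25 (SE 0.175) in Brd1+/- mice. Among all genes tested with limma the WT value ranked at place 33 with an adjusted p-value of 0.364, where 0 genes passed 0.05. Without WT vehicle 1 it was -0.73 (SE 0.117), at place 4, with an adjusted p-value of 0.0411 (0.125% of all genes passed). The difference between the genotypes in this effect, the genotype by IMN interaction, was 0.36 (SE 0.231, limma unadjusted p = 0.125) with all libraries and 0.48 (SE 0.215, limma unadjusted p = 0.0321) without WT vehicle 1, with adjusted p-values of 1.00 and 0.993. It was thus not shown that Klf4 responded differently in the genotypes.

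Klf2, the flow-responsive factor of endothelium (chr8:72319033-72321656, plus strand), depended on 1 library. It ranged from 8.01 to 18.9 TPM (median 17.4 TPM) in WT vehicle and from 8.09 to 16.1 TPM (median 13.1 TPM) in WT IMN libraries. WT vehicle 1 held the lowest of those values, and the other 7 vehicle libraries lay between 11.7 and 18.9 TPM. Its Brd1+/- ranges were 10.2 to 19.7 TPM with vehicle and 7.68 to 17.6 TPM with IMN, with medians of 13.1 and 13.9 TPM. The log2 fold change with IMN in WT mice was -0.30 (SE 0.163, limma unadjusted p = 0.0849) with all libraries and -0.42 (SE 0.134, limma unadjusted p = 0.00539) without WT vehicle 1. The value in Brd1+/- mice was -0.07 (SE 0.153), and it turned positive without Brd1+/- vehicle 7, IMN 1 or IMN 4.

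Klf6 and Klf7, the factors tied to axon growth, differed little between the groups. Klf6 (chr13:5861482-5870394, plus strand) had group means from 23.6 to 25.9 TPM, with single libraries from 19.0 to 34.3 TPM. Its log2 fold changes with IMN were -0.08 (SE 0.075) in WT and -0.05 (SE 0.094) in Brd1+/- mice. Klf7 (chr1:64029447-64122282, minus strand) had group means from 15.3 to 16.7 TPM, and its fold changes were 0.12 (SE 0.101) and 0.10 (SE 0.111). For both genes the 95% intervals of these changes held 0, and those of the mean over both genotypes ran from -0.18 to 0.06 for Klf6 and from -0.04 to 0.27 for Klf7.

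Klf3, the CtBP-recruiting member (chr5:64803388-64832901, plus strand), was, with all libraries, the 1 member with a genotype by IMN interaction past an unadjusted p-value of 0.05, and without WT vehicle 1 Klf4 was past it as well. It ranged from 11.6 to 17.8 TPM (median 13.4 TPM) in WT vehicle and from 8.79 to 14.8 TPM (median 12.3 TPM) in WT IMN libraries. Brd1+/- libraries ranged from 7.02 to 14.0 TPM (median 11.3 TPM) with vehicle and from 10.7 to 16.5 TPM (median 12.2 TPM) with IMN. The ranges of the 4 groups overlapped. Under vehicle, however, all 9 Brd1+/- libraries were below the WT mean, and 5 were below the lowest WT library. The log2 fold changes were -0.23 (SE 0.117) in WT and 0.20 (SE 0.123) in Brd1+/- mice, and their difference was 0.42 (SE 0.172, limma unadjusted p = 0.0191, adjusted p-value 1.00). Under vehicle, Brd1+/- mice stood at 79.1% of the WT level, with a log2 fold change of -0.34 (SE 0.131, limma unadjusted p = 0.0188, adjusted p-value 1.00). The antisense overlap named above applies to these values.

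Of the members that recruit Sin3, Klf10 had nearly the same difference with IMN in both genotypes. It lies on chr15:38291463-38300706 (minus strand). Its WT vehicle libraries were tightly grouped, from 27.6 to 34.7 TPM with a median of 30.4 TPM, and its WT IMN libraries ran from 13.7 to 29.6 TPM with a median of 25.0 TPM. All 10 WT IMN libraries were below the vehicle mean and 7 were below the lowest vehicle library. Brd1+/- libraries ran from 23.0 to 35.4 TPM (median 26.2 TPM) with vehicle and from 11.7 to 27.1 TPM (median 23.1 TPM) with IMN. Here 9 of 9 IMN libraries were below the vehicle mean, and 4 were below the lowest vehicle library. The log2 fold changes were -0.39 (SE 0.118) in WT mice and -0.40 (SE 0.133) in Brd1+/- mice, with an interaction of -0.01 whose 95% interval ran from -0.38 to 0.36. As the mean over both genotypes, the level with IMN was 76.2% of that with vehicle, a log2 fold change of -0.39 (SE 0.091). With limma this was the last of 65 genes with an adjusted p-value under 0.05 (0.0491). When each of the 36 libraries was left out in turn, the fold change stayed between -0.42 and -0.34 and the adjusted p-value between 0.0312 and 0.0931, with 9 of the 36 under 0.05. The spread of Klf10 was wider with IMN, with SDs of 5.08 and 4.80 TPM beside 2.08 and 4.15 TPM with vehicle; this difference in spread was not tested.

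Klf16 (chr10:80567124-80577321, minus strand) ranged from 22.2 to 52.4 TPM (median 42.0 TPM) in WT vehicle and from 22.4 to 48.3 TPM (median 33.5 TPM) in WT IMN libraries. The Brd1+/- libraries ranged from 25.7 to 44.2 TPM (median 36.5 TPM) with vehicle and from 11.4 to 38.6 TPM (median 34.0 TPM) with IMN. Its extremes were single libraries: WT vehicle 1 held 22.2 TPM while the other 7 of its group held at least 37.5 TPM, and Brd1+/- IMN 6 held 11.4 TPM while the other 8 held at least 27.9 TPM. The log2 fold change with IMN was -0.33 (SE 0.155, limma unadjusted p = 0.0474) in WT mice and -0.24 (SE 0.185) in Brd1+/- mice. Without WT vehicle 1 the WT value was -0.45 (SE 0.127, limma unadjusted p = 0.00223). The unadjusted limma p-value of the WT difference was under 0.05 in 6 of 10 alternatives, 1 of which left out WT vehicle 1. It was under 0.05 in 5 of the 18 cases with a library left out, which hold that case again, and it reached 0.0999 without WT vehicle 7.

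Klf9 and Klf13, the most abundant pair, differed less. Klf9 (chr19:23141226-23168134, plus strand) had group means of 110.6 to 118.2 TPM, and Klf13 (chr7:63886351-63938915, minus strand) of 52.5 to 60.5 TPM. WT vehicle 1 had the highest Klf9 level of all 36 libraries, 169.6 TPM, where the other 7 of its group had 78.1 to 127.6 TPM. The log2 fold changes with IMN were 0.08 (SE 0.142) and 0.09 (SE 0.081) for Klf9 in WT and Brd1+/- mice, and 0.07 (SE 0.092) and 0.07 (SE 0.083) for Klf13. The 95% intervals held 0 in each case.

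Klf15, which binds the same motifs but is induced by glucocorticoids and governs amino acid and lipid metabolism, was the 1 member higher with IMN at an unadjusted p-value under 0.05, in Brd1+/- mice and over both genotypes. It lies on chr6:90462576-90475238 (plus strand). It ranged from 15.8 to 27.4 TPM (median 21.1 TPM) in WT vehicle and from 18.9 to 31.3 TPM (median 24.8 TPM) in WT IMN libraries. Brd1+/- libraries ranged from 17.7 to 28.9 TPM (median 19.95 TPM) with vehicle and from 19.8 to 32.7 TPM (median 28.0 TPM) with IMN, where 8 of 9 IMN libraries exceeded the vehicle mean and 3 exceeded the highest vehicle library. On the log2 scale the difference was 0.38 (SE 0.101) in Brd1+/- and 0.18 (SE 0.116) in WT mice. Limma placed the former at rank 69 with an adjusted p-value of 0.519, and the interaction was 0.20 (SE 0.156, unadjusted p = 0.213). Over both genotypes the mean was 0.28 (SE 0.078), for which limma gave an adjusted p-value of 0.131. Across 10 other ways of processing the data its difference in Brd1+/- mice stayed between 0.37 and 0.44.

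**Figure D3:**
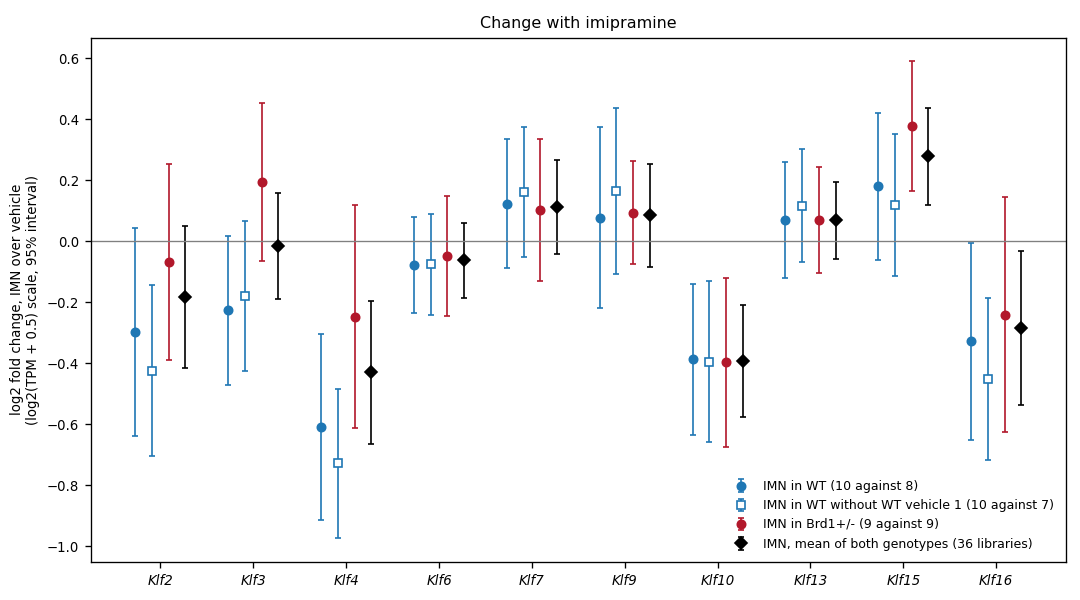
Log2 fold change with IMN over vehicle for the 10 genes on the log2(TPM + 0.5) scale, with 95% limma intervals, in WT mice (blue, open squares without WT vehicle 1), in Brd1+/- mice (red) and as the mean over both genotypes (black). Klf10 lies at -0.39 to -0.40 in each, Klf4 between -0.25 and -0.73, and Klf15 above 0 throughout.

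Counted at an unadjusted p-value under 0.05, 3 of the 10 members were lower with IMN in WT mice (Klf4, Klf10 and Klf16) and 0 were higher, where 4.57% of all genes tested were lower and 2.03% higher (0% at the adjusted level). Of the same 10 in Brd1+/- mice 1 was lower (Klf10) and 1 higher (Klf15), beside 2.4% and 3.12% of all genes. Over both genotypes 3 were lower (Klf4, Klf10 and Klf16) and 1 was higher (Klf15), beside 5.39% and 3.85%, and 1 (Klf10) passed at the adjusted level, beside 0.254% of all genes. The median log2 fold change of the 10 was -0.15 in WT mice, 0.01 in Brd1+/- mice and -0.04 over both, where the median of all genes was -0.01, 0.01 and 0.00. As the members were listed with these differences in view, the shares are given side by side and nothing is read from them. Both Brd1+/- calls held without Brd1+/- vehicle 6. Without WT vehicle 1, 4 members were lower in WT mice (Klf2, Klf4, Klf10 and Klf16), when 6.71% of all genes were lower, and 5 were past 0.05 over both genotypes, when 11.6% of all genes were, 2 of them (Klf4 and Klf10) at the adjusted level (0.637%). The comparisons share libraries, so their counts are not independent.

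Between the genotypes the differences were small. Under vehicle all 10 members had lower means on the log2 scale in Brd1+/- mice, with a median log2 fold change of -0.12 beside -0.02 for all genes, but only Klf3 was past an unadjusted p-value of 0.05, when 2.53% of all genes were lower at that level. The signs of Klf7 and Klf9, both within 0.01 of 0, turned under median-ratio scaling (0.01 and 0.02) and quantile normalization (0.01 and 0.02), and without WT vehicle 1 (0.03 and 0.09). Without that library 3 members were lower at that level, Klf2 at -0.34 (SE 0.128), Klf3 at -0.29 (SE 0.132) and Klf16 at -0.30 (SE 0.111), when 4.15% of all genes were. Under IMN 0 of 10 were past 0.05 (3.23% of all genes), and the median was -0.01 beside 0.01 for all genes. The interaction was past 0.05 for 1 member, Klf3 (3.2% of all genes), and without WT vehicle 1 for 2, Klf3 and Klf4 (4.1% of all genes). The groups overlapped for all 10 members in each of the 4 comparisons, while 0.0156%, 0.00782%, 0.00391% and 0% of all genes had groups without overlap for IMN in WT, IMN in Brd1+/-, genotype under vehicle and genotype under IMN.

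The rest of the family was tested in the same fits. These genes were left out when the members were chosen with the group levels in view. Their counts are therefore no unselected test of the family and are given as a description. Of 6 other Klf genes tested, 1 was past an unadjusted p-value of 0.05 with IMN over both genotypes, where 5.39% of all genes were lower and 3.85% higher. Klf11, a Sin3-recruiting relative of Klf10, was higher by 0.17 (SE 0.065, limma adjusted p-value 0.335). Among Brd1+/- mice Klf11 stood at 3.65 TPM ± 0.581 (SD, n = 9) after IMN and 2.92 TPM ± 0.293 (SD, n = 9) with vehicle, and 7 of 9 IMN libraries exceeded the highest vehicle library. Its direction was thus opposite to that of Klf10. In WT mice, where 4.57% of all genes were lower at that level, 1 of 6, Klf5, had a log2 fold change of -0.30 (SE 0.128, limma adjusted p-value 0.713). In Brd1+/- mice the value of Klf5 was 0.03 (SE 0.186). Of the Sp genes, the sister family with the same type of zinc fingers, 0 of 8 tested and of the corepressors and partners of Klf proteins 0 of 12 (among them Sin3a, Ctbp1, Ctbp2 and Hdac1) were past 0.05 over both genotypes.

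Lists of genes known to follow the same stimuli as some members were set beside them. The lists were chosen with earlier results of these data known, so their counts are a description. Over both genotypes 5.39% of all genes tested were lower and 3.85% higher with IMN at an unadjusted p-value under 0.05. Of 20 immediate-early genes, transcribed within minutes of neuronal activity, 14 were lower and 1 higher with IMN over both genotypes at an unadjusted p-value under 0.05. Npas4 had a log2 fold change of -0.94 (SE 0.165, limma adjusted p-value 0.00400), Egr1 of -0.66 (SE 0.126, 0.0107) and Arc of -0.67 (SE 0.131, 0.0121). The exception was Jun, at 0.28 (SE 0.135, limma adjusted p-value 0.529). Of 12 glucocorticoid-responsive genes 5 were higher and 1 lower: Ddit4, an inhibitor of mTOR signalling, rose by 0.49 (SE 0.079, limma adjusted p-value 0.00174), Plin4 was at 0.68 (SE 0.204) and Cdkn1a at -0.43 (SE 0.131), both short of the adjusted level. Of 10 clock-controlled genes 1 was higher (Hlf) and 2 were lower (Per1 and Per2). The 3 endothelial genes that Klf2 and Klf4 are known to induce were, unlike the lists above, read within each genotype. In WT mice 4.57% of all genes were lower with IMN at an unadjusted p-value under 0.05. Nos3, the endothelial nitric oxide synthase, had a log2 fold change of -0.44 (SE 0.166) and Thbd of -0.33 (SE 0.137) in WT mice, with limma adjusted p-values of 0.667 and 0.704. Their Brd1+/- values were -0.14 (SE 0.162) and 0.05 (SE 0.182). Plpp3, the most abundant of the 3 (median 108 TPM beside 5.30 and 5.88 TPM), is given no fold change here. The values of Nos3 and Thbd therefore do not stand for all 3. The mean log2 level of the 3 genes was 4.12 (SD 0.285) in WT vehicle and 3.86 (SD 0.240) in WT IMN libraries. In Brd1+/- libraries it was 3.98 (SD 0.224) with vehicle and 3.94 (SD 0.241) with IMN. The summed level of the 3 had medians of 126, 112, 123 and 120 TPM in WT vehicle, WT IMN, Brd1+/- vehicle and Brd1+/- IMN libraries. Endothelial markers as a whole gave 1 of 12 past 0.05 over both genotypes, and their summed level had medians of 198, 200, 203 and 221 TPM in WT vehicle, WT IMN, Brd1+/- vehicle and Brd1+/- IMN libraries. All 10 oligodendrocyte markers had higher means with IMN in both genotypes, 0 of them past 0.05, with a median log2 fold change of 0.61 in WT mice and 0.41 over both. Without WT vehicle 1, 3 of the 10 were higher at an unadjusted p-value under 0.05 in WT mice, and the medians were 0.93 and 0.58. Without that library the genotype difference under vehicle had 2 of the 10 higher, with a median of 0.66. The counts without WT vehicle 1 have no share of all genes beside them and are a description. The part of cell makeup in the Klf differences was not tested.

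The variation between mice of the same group was examined next, with group means removed, since it does not use the differences the genes were listed with. Members were related to 6 list scores, each the mean log2(TPM + 0.5) of a list in a library, over 36 libraries (60 relations, permutation within groups, Benjamini-Hochberg adjusted). Of these, 19 had an adjusted p-value under 0.05, 12 positive and 7 negative, and 14 of the 19 also had one by rank. The share of all genes that pass the same rule was not computed, so the count is not read as particular to Klf genes. The scores can also vary together: WT IMN 4 had both the lowest endothelial score (3.13) and the lowest astrocyte score (5.77) of all 36 libraries. Correlations between the scores were not computed, so relations of a member to several scores are not separate results. The highest Pearson's r over all 36 libraries was that of Klf16 to the immediate-early score, r = 0.73 (permutation p = 3e-05, adjusted 0.0006) and Spearman's rho = 0.59 (permutation p = 0.00036, adjusted 0.0048). Klf4 followed at r = 0.70 (permutation p = 8e-05, adjusted 0.0012) and rho = 0.62 (permutation p = 0.00022, adjusted 0.0048). The 2 libraries farthest out on that score were WT vehicle 1 and Brd1+/- IMN 6, and without them r was 0.51 for Klf16 (permutation p = 0.0039) and 0.52 for Klf4 (permutation p = 0.00235). For Klf4 the sign was positive within each of the 4 groups, from 0.44 to 0.87, and for Klf16 too, from 0.29 to 0.88. Klf2 (r = 0.56, permutation p = 0.00295, adjusted 0.0136; rho = 0.46, permutation p = 0.00762, adjusted 0.0327) and Klf10 (r = 0.46, permutation p = 0.0028, adjusted 0.0136; rho = 0.41, permutation p = 0.0147, adjusted 0.0534) were weaker. Without WT vehicle 1, Klf2 gave r = 0.40 with an adjusted p-value of 0.12, and in Brd1+/- vehicle libraries alone its r was -0.19. For Klf10 r was 0.37 without the 2 farthest libraries (permutation p = 0.046).

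**Figure D4:**
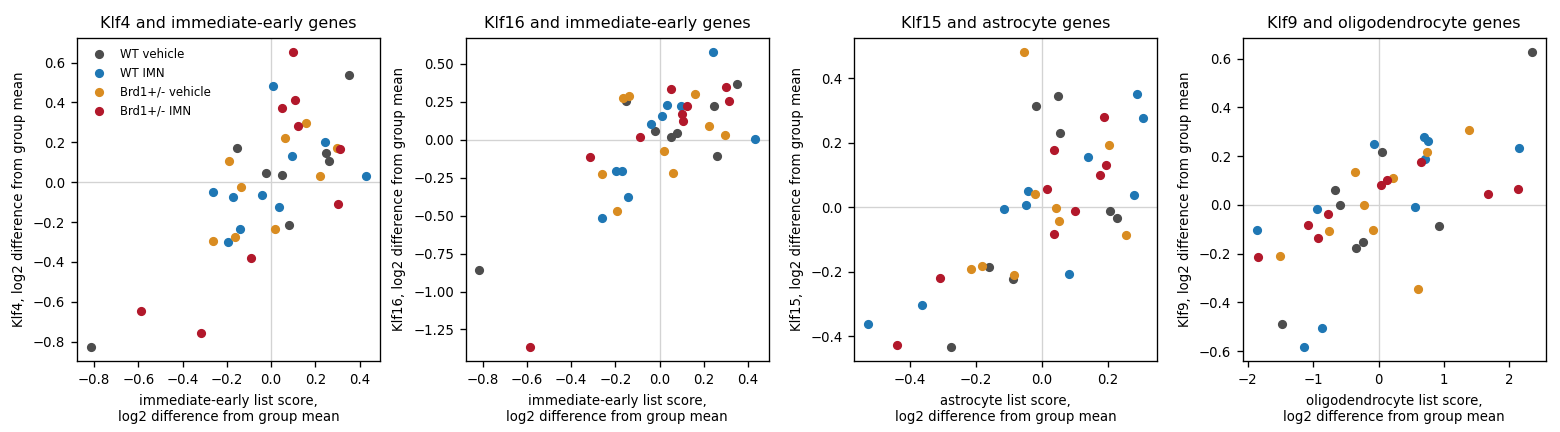
Log2 levels of Klf4, Klf16, Klf15 and Klf9 (vertical) against the score of a gene list (horizontal), each as the difference from the group mean, with 1 point per library in 4 colours for the groups. The relations rise in each panel, with r of 0.70, 0.73, 0.67 and 0.66, and the lowest points are WT vehicle 1 and Brd1+/- IMN 4 for Klf4 and Brd1+/- IMN 6 and WT vehicle 1 for Klf16.

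Klf15 followed the astrocyte score, with r = 0.67 (permutation p = 3e-05, adjusted 0.0006) and rho = 0.59 (permutation p = 0.0004, adjusted 0.0048). It also followed the endothelial score, with r = 0.62 (permutation p = 0.00017, adjusted 0.0019) and rho = 0.61 (permutation p = 0.00029, adjusted 0.0048), and the glucocorticoid-responsive score, with r = 0.55 (permutation p = 0.00064, adjusted 0.00384) and rho = 0.56 (permutation p = 0.0008, adjusted 0.0064). Each was positive in all 4 groups. Without the 2 farthest libraries the values were 0.58 (permutation p = 0.00085), 0.53 (permutation p = 0.0018) and 0.49 (permutation p = 0.0041). The third also weakened without WT vehicle 1 and Brd1+/- vehicle 6 together, to r = 0.42 with an adjusted p-value of 0.0756. Klf2 and Klf4 shared the endothelial relation, with r of 0.47 (permutation p = 0.00415, adjusted 0.0178) and 0.50 (permutation p = 0.00054, adjusted 0.0036), and rho of 0.41 (permutation p = 0.0151, adjusted 0.0534) and 0.51 (permutation p = 0.00113, adjusted 0.00678). Their r without the 2 farthest libraries was 0.44 and 0.46, and within Brd1+/- vehicle libraries it was 0.18 for Klf2 and -0.18 for Klf4. With the astrocyte score Klf2 had r = 0.60 (permutation p = 0.00024, adjusted 0.00206) and rho = 0.42 (permutation p = 0.0151, adjusted 0.0534). Klf4 had r = 0.41 (permutation p = 0.0143, adjusted 0.0453) and rho = 0.34 (permutation p = 0.0461, adjusted 0.106), and the latter relation rested on WT IMN 4 and Brd1+/- IMN 4, without which r was 0.32 (permutation p = 0.0655).

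Klf9, which is known to act in oligodendrocyte maturation, followed the oligodendrocyte score. Its r was 0.66 (permutation p = 1e-05, the smallest that 100000 draws can give, adjusted 0.0006) and its rho 0.70 (permutation p = 1e-05, adjusted 0.0006). The value was positive in all 4 groups, from 0.52 to 0.82, and 0.57 without WT vehicle 1 and WT IMN 7 (permutation p = 0.00045). Klf16 ran the other way, with r = -0.62 (permutation p = 0.00019, adjusted 0.0019) and rho = -0.54 (permutation p = 0.00096, adjusted 0.0064), negative in all 4 groups and also -0.62 without those libraries. Klf13, the relative of Klf9, had r = 0.38 (permutation p = 0.0293, adjusted 0.0836) and rho = 0.32 (permutation p = 0.0717, adjusted 0.154). Klf7, Klf9 and Klf10 were lower where the endothelial and astrocyte scores were higher, with r from -0.40 to -0.55 in the 6 relations. Of these, 3 were not firm: Klf7 with the endothelial score (adjusted permutation p = 0.084 without WT vehicle 1, and r = 0.05 within WT vehicle libraries), Klf9 with the astrocyte score (adjusted permutation p = 0.147 without WT vehicle 1 and 0.106 under quantile normalization) and Klf10 with the endothelial score (adjusted permutation p = 0.0589 under quantile normalization). For Klf7 and the astrocyte score r was -0.54 (permutation p = 0.00033, adjusted 0.00247) and rho -0.59 (permutation p = 0.00056, adjusted 0.0056), negative in all 4 groups. Klf3, Klf6 and Klf13 had no relation past the adjusted level, and the clock-controlled score had none with any member, the nearest being Klf15 (r = 0.42, permutation p = 0.0174, adjusted 0.0522; rho = 0.36, permutation p = 0.0406, adjusted 0.102). All values of a library are shares of 1 total, so a rise of some genes lowers the rest, and the part of this in the negative relations was not tested.

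**Figure D5:**
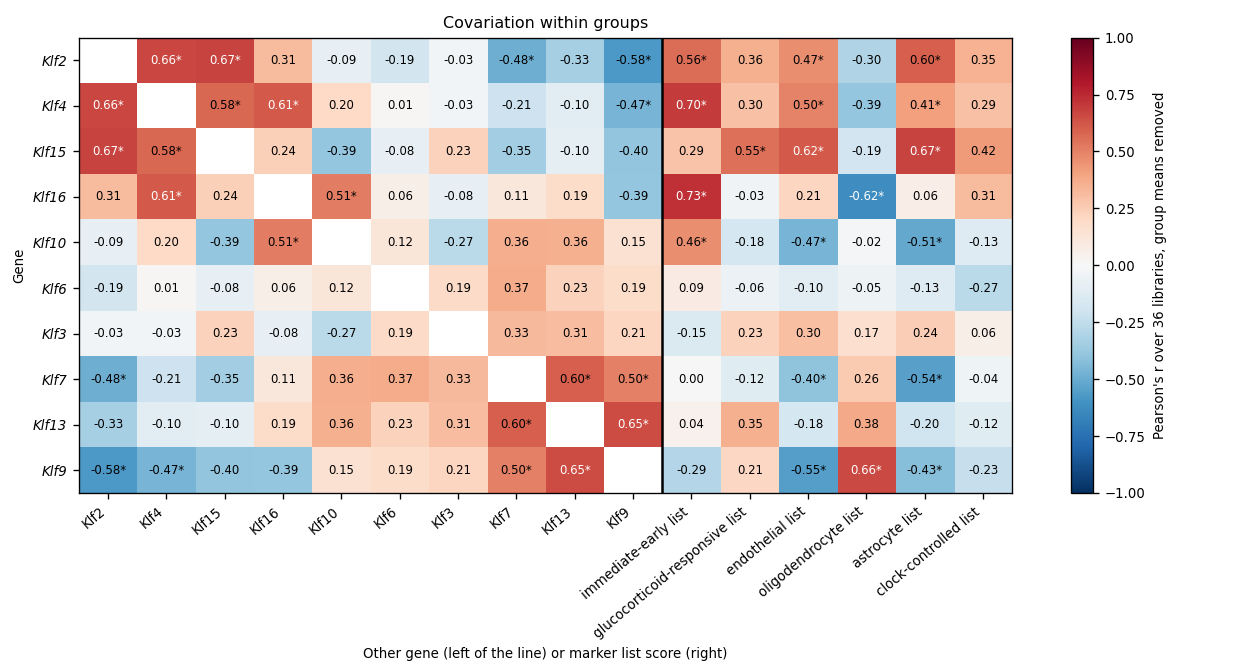
Pearson's r over 36 libraries with group means removed, between the 10 genes (left of the line) and between genes and 6 list scores (right). Asterisks mark a Benjamini-Hochberg adjusted permutation p-value under 0.05 (11 of 45 pairs and 19 of 60 relations to lists). Klf2, Klf4 and Klf15 form one red block and Klf7, Klf9 and Klf13 another, with blue cells between Klf2 and Klf9.

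Among the members themselves, 11 of 45 pairs had an adjusted p-value under 0.05, 8 positive and 3 negative, and 10 of the 11 had one by rank as well. The share over pairs of all genes was not computed, so this count too is a description. Among the pairs were 2 sets. In the first, Klf2 and Klf15 had r = 0.67 (permutation p = 5e-05, adjusted 0.00135; rho = 0.61, permutation p = 0.00013, adjusted 0.00585), Klf2 and Klf4 r = 0.66 (permutation p = 0.0002, adjusted 0.00225; rho = 0.56, permutation p = 0.00087, adjusted 0.00697) and Klf4 and Klf15 r = 0.58 (permutation p = 0.00035, adjusted 0.00225; rho = 0.58, permutation p = 0.00037, adjusted 0.00697). Each was positive in all 4 groups. Klf4 thus varied together with Klf15 between mice although the mean of Klf4 was lower and that of Klf15 higher with IMN. In the second set Klf9 and Klf13 had r = 0.65 (permutation p = 6e-05, adjusted 0.00135; rho = 0.57, permutation p = 0.0006, adjusted 0.00697), Klf7 and Klf13 r = 0.60 (permutation p = 0.00025, adjusted 0.00225; rho = 0.57, permutation p = 0.0007, adjusted 0.00697) and Klf7 and Klf9 r = 0.50 (permutation p = 0.002, adjusted 0.0109; rho = 0.48, permutation p = 0.00518, adjusted 0.0243), also positive in all 4 groups. Without the 2 farthest libraries these 6 values lay between 0.41 and 0.60.

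Across the sets r was negative for every pair, but only 3 pairs passed the adjusted level. The others, among them every pair with Klf13 or Klf15, had r from -0.10 to -0.40 (adjusted permutation p-values from 0.0787 to 0.685). Klf2 and Klf9 had r = -0.58 (permutation p = 0.0003, adjusted 0.00225) and rho = -0.51 (permutation p = 0.00208, adjusted 0.0134), Klf2 and Klf7 r = -0.48 (permutation p = 0.00404, adjusted 0.0182) and rho = -0.44 (permutation p = 0.00982, adjusted 0.0369), and Klf4 and Klf9 r = -0.47 (permutation p = 0.00219, adjusted 0.0109) and rho = -0.44 (permutation p = 0.0054, adjusted 0.0243). Each of these was negative in all 4 groups, though r of Klf4 and Klf9 was near 0 in Brd1+/- vehicle libraries (-0.04). Without the 2 farthest libraries the values were -0.47, -0.46 and -0.30. The pair of Klf4 and Klf9 had an adjusted permutation p = 0.0666 without WT vehicle 1, and under quantile normalization that of Klf7 and Klf13 had 0.0645. Klf16 varied with Klf4 (r = 0.61, permutation p = 0.00035, adjusted 0.00225; rho = 0.54, permutation p = 0.00093, adjusted 0.00697), though in Brd1+/- vehicle libraries their r was near 0. Its relation to Klf10 (r = 0.51, permutation p = 0.0103, adjusted 0.0423; rho = 0.28, permutation p = 0.112, adjusted 0.211) rested on WT IMN 3 and Brd1+/- IMN 6, without which r was 0.06 (permutation p = 0.704). The short CRE was found in the promoters of Klf2, Klf4 and Klf15 of the first set and in those of Klf9 and Klf13, but not Klf7, of the second. The Klf7 window lay wholly inside the annotated Klf7 gene. The sets are small and were drawn from these same data, so the motif matches are a description. A link between the motif and the covariation was not tested.

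The genes whose within-group pattern was most like that of each member, among 17715 others with a mean of at least 1 TPM, are given as a description over 36 libraries. Those of Klf16 were Fbxl16 and Agap2, both with r = 0.95, and those of Klf9 were Gm5421 and Adam9 with r = 0.87. Klf10 was most like Plk3, a stress-responsive polo-like kinase, with r = 0.85, and Klf7 most like D130043K22Rik (r = 0.88) and Chrna7, a nicotinic receptor subunit (r = 0.85). Klf15 was most like Mdk, a heparin-binding growth factor, with r = 0.85, and Vim, the intermediate filament vimentin, with r = 0.83. Mdk stood high for Klf2 as well (r = 0.76), after Ifitm3 (r = 0.77). Klf13 was most like Plxna2, a semaphorin receptor (r = 0.83), Klf6 like Rrm2b (r = 0.77), Klf4 like Fkbp10 (r = 0.75) and Klf3 like Aff1 (r = 0.70). Klf3 thus had the weakest best match and Klf16 the closest.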

How the data were processed

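Punches of aCC were sequenced by the authors as single-end 50 bp reads on the BGISEQ-500 platform. Reads were filtered, aligned to GRCm38 with HISAT2 2.1.0 and quantified per gene with StringTie 1.3.4, and strand use is not stated. The deposited values are TPM made by the authors, with no scaling between libraries. Column totals ran from 999727 to 999889, and TPM keep no record of depth, so that error was taken from the spread between mice. Groups came from the labels.

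TPM were taken as log2(TPM + 0.5), which understates changes at low levels. The 25572 genes that reached 0.1 TPM in 8 or more of the 36 libraries entered two-sided fits with limma 3.58.1 (R 4.3.3, empirical Bayes with a mean trend), and p-values were adjusted over them by Benjamini-Hochberg. Pairs of groups were fitted alone, and the mean IMN effect and the interaction over all 36 libraries. Within-group correlations used 100000 two-sided permutations within groups (20000 after leaving out 2 libraries) in Python 3.11.15 with numpy 2.4.6. In simulated data for IMN in WT the fit recovered 97% of genes changed 2-fold and 80% of those changed 1.5-fold at an adjusted p-value under 0.05. The simulation drew independent normal noise for each gene and changed only genes with a mean log2 level above 2. It held no outlying libraries and no variation shared between genes, so these shares do not give the recovery in the data described here. Coordinates are from GENCODE M21 (GRCm38). All 10 members are named, list genes are named where past p 0.05 in the contrast described, and the most alike genes by within-group r. The members and lists were chosen with earlier results of these data known.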

Additional observations from a re-analysis of the deposited data

Results flagged for a closer look

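In 4 of 40 combinations of member and group, 1 library lay farther from the rest than Dixon's 95% limit allows, a limit that chance exceeds in about 1 of 20 groups. Klf16 was 22.2 TPM in WT vehicle 1, where the other 7 libraries ran from 37.5 to 52.4 TPM, and 11.4 TPM in Brd1+/- IMN 6, where the other 8 ran from 27.9 to 38.6 TPM. Both libraries also had the lowest immediate-early sum of their group (1043 and 711 TPM) and the highest oligodendrocyte sum (2841 and 3445 TPM), and their part in the Klf16 values was not tested. Klf7 was 9.15 TPM in Brd1+/- vehicle 7, beside 14.7 to 19.2 TPM in the other 8, and 21.5 TPM in Brd1+/- IMN 4, beside 13.6 to 16.8 TPM. Brd1+/- vehicle 7 also held the lowest Klf9, Klf13 and Klf16 and the highest Klf2 level of its group, and Brd1+/- IMN 4 the lowest Klf4 level and the highest Klf9 level of its group.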

How the results depend on the processing

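The alternatives were other pseudocounts (0.1 and 1), no filter, a minimum mean of 1 TPM, scaling by median ratios or quantiles, a replicate block, array weights, 1 fit of all libraries, and libraries left out. Counts of members past p 0.05 stayed within 1.5 times in 54 cases and moved further in 4. With array weights 5 members were past p 0.05 for IMN in WT and 2 for genotype under vehicle. Without WT vehicle 1 and Brd1+/- vehicle 6, 3 were for genotype under vehicle and 3 for the interaction. Leaving out 1 library gave 1 to 3 for genotype under vehicle (3 without WT vehicle 1, 2 without Brd1+/- vehicle 3 or 9), 0 to 1 for genotype under IMN (Klf4, without Brd1+/- IMN 4) and 1 to 2 for the interaction (without WT vehicle 1 or Brd1+/- IMN 4). Shares of all genes without WT vehicle 1 are given above. The other counts here have no such share beside them, so they describe the settings and are not read as a result about the members. The adjusted p-value of Klf10 over both genotypes (0.0491, limma) ran from 0.0223 with array weights to 0.0774 with the block, and was under 0.05 in 6 of 9 alternatives. That of Klf4 (0.115) ran from 0.0284 to 0.155. The cause was not tested.

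Signs turned for small changes. Under genotype with vehicle, Klf7 and Klf9 were 0.0150 and 0.0191 with median-ratio scaling, 0.0119 and 0.0200 with quantile normalization, 0.101 and 0.0412 with array weights, and 0.0209 and 0.0487 without WT vehicle 1 and Brd1+/- vehicle 6, when Klf3 for IMN over both genotypes was 0.0284 and the Klf9 interaction -0.0345. With array weights, genotype under IMN was -0.0354 for Klf9 and 0.0211 for Klf16, and the interaction -0.00958 for Klf6, -0.0729 for Klf9 and 0.0135 for Klf10. The Klf9 interaction was -0.00876 with median-ratio scaling. With 1 library left out, sign changes lay within these ranges: IMN in Brd1+/-, Klf2 -0.127 to 0.0156 and Klf6 -0.0865 to 0.0131; IMN over both genotypes, Klf3 -0.0540 to 0.00792; genotype under vehicle, Klf7 -0.0485 to 0.0802 and Klf9 -0.0722 to 0.0868. For genotype under IMN they were Klf2 -0.0466 to 0.102, Klf7 -0.0762 to 0.00504, Klf9 -0.0504 to 0.0450 and Klf16 -0.148 to 0.0796. For the interaction they were Klf6 -0.0106 to 0.0905, Klf7 -0.107 to 0.0214, Klf9 -0.0726 to 0.0864, Klf10 -0.0928 to 0.0919 and Klf13 -0.0480 to 0.0452.

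Scaling moved the split of all genes called: the share higher was 30.7% for IMN in WT (42.7% median-ratio, 47.6% quantile), 32.6% for genotype under vehicle (45.6% and 47.7%), 61.1% for genotype under IMN (56.6% and 47.7%) and 68.2% for the interaction (56% and 48.1%). Relations past the adjusted level kept it in 78 refits with other settings and lost it in 12, and kept it in 24 and lost it in 6 without WT vehicle 1. Same-numbered libraries did not vary together (r from -0.26 to 0.26, 1 of 34 above 0.1), so no pairs were seen by number. Low values of r cannot exclude pairs, for differences in the makeup of the punches can hide them. The paper states that WT and Brd1+/- mice were matched by litter, and litter was not part of the fits. With the replicate numbers as a block 4, 2, 4, 1, 0 and 1 members were past p 0.05, beside 3, 2, 4, 1, 0 and 1, and the Klf13 interaction was 0.0163. The counts with the block have no share of all genes beside them, and nothing is read from them. TPM without depth limit all statements to differences larger than the spread between mice.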
